A study of Mus musculus with 36 samples.

Results

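The genes of 7 enzymes of cholesterol synthesis, Hmgcs1, Idi1, Fdps, Fdft1, Sqle, Lss and Cyp51, were followed through regeneration of the mouse liver. They were taken by gene symbol as 7 of the 21955 symbols in each count table, with earlier results of these data known. All 7 were among the 13436 genes that passed the filter on low counts. They are targets of the transcription factor SREBP-2.

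Total RNA was sequenced from livers of C57BL/6JN mice, an inbred laboratory strain, that were either young (4 months) or old (18 months). Livers were taken before regeneration and at 5 later time points labelled 48, 72, 96, 120 and 240, with 3 biological replicates in each of the 12 groups, 36 libraries in all. The labels name the old mice as the treated group and mention no genetic change or drug in any group. They give neither a unit for the time points nor the procedure that started regeneration.

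The liver makes much of the cholesterol of the body, and dividing cells need it for new membrane. Synthesis runs from acetyl units through mevalonate to isoprenoid units, which are joined into squalene, closed into the first sterol and trimmed to cholesterol. When sterols in the endoplasmic reticulum run low, SCAP carries SREBP-2 to the Golgi, where the proteases encoded by Mbtps1 and Mbtps2 release its active part. INSIG proteins hold SCAP back when sterols are plentiful. Active SREBP-2 binds sterol regulatory elements in the promoters of the synthesis genes, commonly beside CCAAT boxes bound by NF-Y.

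The upstream sequences of 4 of the 7 genes (Hmgcs1, Idi1, Lss and Cyp51) were in the RefSeq promoter table for GRCm38.p6. They are shown as a description, and a link between these sequences and the levels of the genes was not tested. Capitals mark a match to the sterol regulatory element core TCACNCCA or to CCAAT, or to their reverse complements TGGNGTGA and ATTGG. Each sequence is given in the direction of transcription, either as the stretch outside the annotated gene body (Hmgcs1, Lss) or as 30 bases around 1 CCAAT match (Idi1, Cyp51). The Idi1 and Cyp51 stretches lie before the RefSeq start but inside the GENCODE gene body, which reaches 105 and 49 bases into the 250 bases before that start.

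Hmgcs1, chr13:119690101-119690350, plus strand: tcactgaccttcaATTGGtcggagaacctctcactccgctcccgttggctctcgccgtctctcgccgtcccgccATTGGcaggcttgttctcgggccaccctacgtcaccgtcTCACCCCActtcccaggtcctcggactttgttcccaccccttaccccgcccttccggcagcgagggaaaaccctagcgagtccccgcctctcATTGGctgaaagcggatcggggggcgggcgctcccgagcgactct
Lss, chr10:76531355-76531587, plus strand: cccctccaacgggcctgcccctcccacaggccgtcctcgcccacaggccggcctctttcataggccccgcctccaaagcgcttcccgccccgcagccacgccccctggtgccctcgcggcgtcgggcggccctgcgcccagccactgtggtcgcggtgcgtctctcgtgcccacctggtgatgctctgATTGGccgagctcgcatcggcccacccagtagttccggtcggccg
Idi1, chr13:8885549-8885578, plus strand: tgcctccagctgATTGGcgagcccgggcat
Cyp51, chr5:4104709-4104738, minus strand: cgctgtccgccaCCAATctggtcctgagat

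In the 250 bases before the RefSeq start, the Hmgcs1 sequence held 1 sterol regulatory element core, at 137 to 130 bases before the start. This core was found on either strand in 3.674% of 32851 windows of the same length. CCAAT was present in the windows of all 4 genes, with 3 matches in Hmgcs1, 2 in Idi1, 1 in Lss and 1 in Cyp51, against 33.85% of all windows with a match. The GC box GGGCGG, a site of Sp1-type factors, was also in all 4 windows, against 32.74% of all windows. The E-box CACGTG was in none of the 4 and in 6.021% of all windows. The core and CCAAT share no overlap with each other in these windows. A match describes the letters and is no measure of binding.

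Totals ranged from 2328233 to 6034446 counts per library, and the lowest count of any of the 7 genes in a library was 25. Levels are given as CPM, the counts relative to the library total after scaling by the TMM method, so they compare a gene between libraries and not 1 gene with another. Every group held 1 library with Y-linked transcripts (12 of 36), and some results are given apart for those libraries and the other 24. The 3 libraries of old mice at 48 lay farthest from their group mates over all genes. All 8 hepatocyte markers were detected. Their summed level was 23980 to 26993 CPM in young livers before and 19291 to 19956 at 48, and 18350 to 24885 and 18306 to 20383 in old livers. The summed level of 8 cell cycle genes went from 45.4 to 75.8 CPM before to 1911 to 3699 CPM at 48 in young livers. In old livers it went from 43.6 to 111.9 CPM to 33.4 to 744 CPM. The part of these shifts in the results below was not tested, and in whole liver fewer cells of a type and less RNA per cell cannot be told apart.

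**Figure D1:**
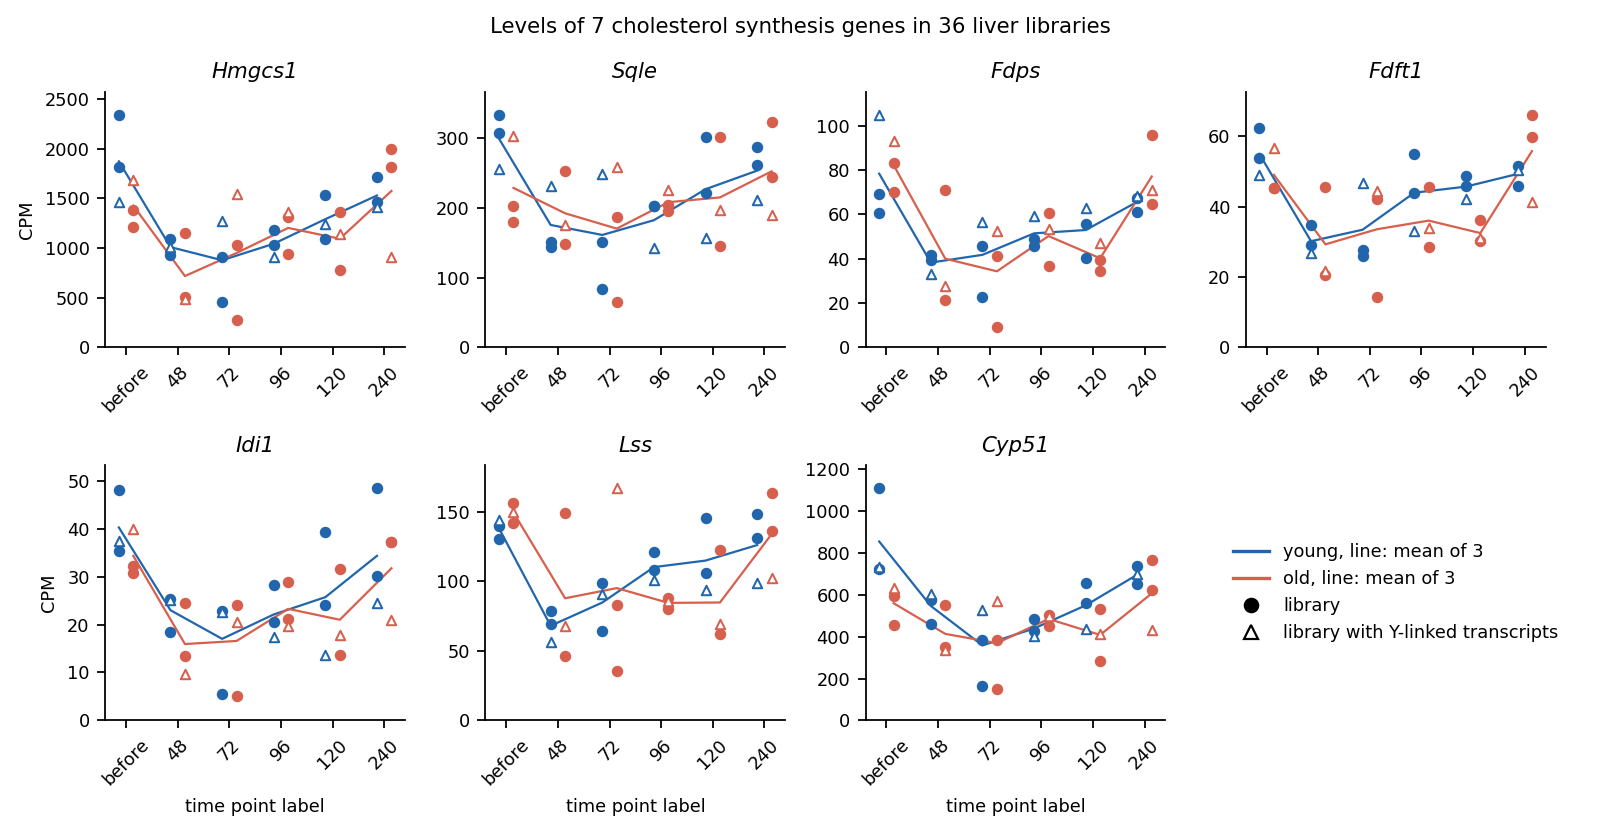
Level of each of the 7 genes (CPM, axes from 0) at each time point label in young (blue) and old (red) livers. Each point is a library, triangles mark libraries with Y-linked transcripts and lines join the means of 3 libraries. All 7 genes were highest before or at 240 and lower between 48 and 120, with a wide spread at 72 in both ages.

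The first question was how the enzymes changed after regeneration began. In young livers all 7 genes were lower at 48 and 72 than in any library before. From 72 on, the mean of each gene lay closer to its mean before at each later time point. At 96 the young means of Idi1 and Cyp51 were still lower than at 48. Fdft1 and Lss fell at 48 and Cyp51 fell at 72 by the test over all genes, and Fdps fell at 72 in old livers. These were 4 calls among 70 comparisons of a gene with before, all 4 of them downward, and 66 of the 70 fitted changes were below 0. A call is an adjusted p under 0.05 by edgeR's quasi-likelihood test with Benjamini-Hochberg adjustment over all genes tested. The 70 comparisons are not independent, since those within an age share the same 3 libraries before and the 7 genes varied together across libraries. Over all genes tested the median change from before lay between -0.018 and 0.015 in each age and time point.

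The early steps were represented by Hmgcs1 and Idi1. Hmgcs1 encodes the cytosolic synthase that makes HMG-CoA. Its level in young livers was 1466, 1813 and 2342 CPM before, 934, 1089 and 1007 CPM at 48, and 452, 909.7 and 1271 CPM at 72. Each library at 48 and 72 lay below the lowest one before, and 1 library at 72 was far below the other two. The log2 fold change was -0.89 ± 0.41 (SE, n = 3 per group; adjusted p 0.122) at 48 and -1.09 ± 0.41 (adjusted p 0.0647) at 72, neither of which was called. In old livers the levels of Hmgcs1 were 1683, 1384 and 1215 CPM before, 492, 1156 and 506 CPM at 48, and 276, 1026 and 1549.6 CPM at 72. The groups did not overlap at 48, whereas at 72 the libraries spread from far below to within the range before. The log2 fold changes in old livers were -0.99 ± 0.41 (adjusted p 0.0783) at 48 and -0.59 ± 0.41 (adjusted p 0.373) at 72.

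Idi1 encodes the isomerase that sets the balance of the isoprenoid units. Young livers held 37.4, 35.3 and 47.9 CPM of Idi1 before, 18.5, 25.4 and 25.1 CPM at 48, and 5.54, 22.8 and 22.7 CPM at 72. Old livers held 39.9, 30.8 and 32.2 CPM before, 9.78, 24.5 and 13.5 CPM at 48, and 5.13, 24.1 and 20.5 CPM at 72. At 48 and 72 the libraries lay below all those before in both ages, and 1 library at 72 in each age was far below its group mates. The log2 fold changes were -0.81 ± 0.46 and -1.26 ± 0.47 at 48 and 72 in young livers (adjusted p 0.222 and 0.0650). In old livers they were -1.10 ± 0.47 and -1.05 ± 0.47 (adjusted p 0.0878 and 0.145), so no change of Idi1 was called.

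Fdps and Fdft1 act at the middle of the pathway, where farnesyl diphosphate is made and joined head to head into squalene. Fdps stood at 105, 69.4 and 60.8 CPM before, 41.8, 39.6 and 33.3 CPM at 48, and 22.8, 45.9 and 56.5 CPM at 72 in young livers. In old livers Fdps stood at 93.2, 83.3 and 70.0 CPM before, 27.6, 71.1 and 21.3 CPM at 48, and 9.03, 41.2 and 52.6 CPM at 72. Old livers at 72 and young livers at both time points did not overlap with before, and in old livers at 48 a single library lay at the level before. In old livers at 72 Fdps fell, with a log2 change of -1.26 ± 0.42, to 41.8% of its level before (adjusted p 0.0465). Its other changes were -1.03 ± 0.42 and -0.92 ± 0.41 at 48 and 72 in young livers (adjusted p 0.0740 and 0.128) and -1.04 ± 0.41 at 48 in old livers (adjusted p 0.0678).

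The squalene synthase gene Fdft1 had levels of 48.9, 53.7 and 62.2 CPM before, 34.6, 29.0 and 26.9 CPM at 48, and 26.0, 27.7 and 46.6 CPM at 72 in young livers. Old livers had 56.6, 45.3 and 45.2 CPM of Fdft1 before, 21.8, 45.6 and 20.5 CPM at 48, and 14.2, 42.1 and 44.4 CPM at 72. The young groups were separate at both time points, and at 72 in old livers 2 of 3 libraries lay just under the lowest before. In young livers at 48 Fdft1 fell, with a log2 change of -0.86 ± 0.31, to 55.1% of its level before (adjusted p 0.0429). At 72 the young change was -0.72 ± 0.31 (adjusted p 0.103), and in old livers the changes were -0.74 ± 0.31 at 48 and -0.55 ± 0.30 at 72 (adjusted p 0.0767 and 0.249).

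Sqle, Lss and Cyp51 encode the oxidation of squalene, the ring closure to lanosterol and the removal of a methyl group from lanosterol. Young livers held 256, 308 and 333 CPM of Sqle before, 144, 152 and 231 CPM at 48, and 83.7, 150.4 and 249 CPM at 72. In old livers Sqle was at 304, 202 and 180.0 CPM before, 176, 253 and 147 CPM at 48, and 64.6, 187 and 259 CPM at 72. The old groups overlapped at both time points and the young groups did not. No change of Sqle was called, with log2 values of -0.77 ± 0.38 and -0.89 ± 0.38 in young livers (adjusted p 0.152 and 0.103). The old values were -0.25 ± 0.38 and -0.43 ± 0.38 (adjusted p 0.661 and 0.500).

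Lss, the lanosterol synthase gene, was at 144, 130.1 and 140.0 CPM before, 69.3, 78.4 and 56.4 CPM at 48, and 64.6, 98.4 and 91.1 CPM at 72 in young livers. In old livers it was at 150.0, 142 and 157 CPM before, 68.0, 149 and 46.0 CPM at 48, and 35.3, 83.1 and 167 CPM at 72. Libraries before differed little in either age, and in old livers the later libraries ran from far below that level up to it. In young livers at 48 Lss fell, with a log2 change of -1.02 ± 0.37, to 49.3% of its level before (adjusted p 0.0499). The change at 72 was -0.71 ± 0.37 (adjusted p 0.197), and old livers gave -0.77 ± 0.37 and -0.65 ± 0.37 (adjusted p 0.132 and 0.260).

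Cyp51 levels in young livers were 733, 722 and 1110.2 CPM before, 463, 576 and 602 CPM at 48, and 165, 385 and 526 CPM at 72. The old livers had 631, 594 and 455 CPM before, 339, 552 and 350.2 CPM at 48, and 152, 384 and 573 CPM at 72. Every young library at 48 and 72 was below those before, while the old groups overlapped. In young livers at 72 Cyp51 fell, with a log2 change of -1.25 ± 0.35, to 41.9% of its level before (adjusted p 0.0140). At 48 the young value was -0.64 ± 0.35 (adjusted p 0.193), and the old values were -0.44 ± 0.35 and -0.60 ± 0.35 (adjusted p 0.374 and 0.267).

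The counts of calls can be set against all genes tested. At 48 in young livers 2 of 7 genes were called lower, where 9.79% of all genes were lower and 21.9% were called in either direction. The figures at 72 were 1 of 7 in young livers, against 8.21% lower and 17.4% in either direction, and 1 of 7 in old livers, against 5.81% lower and 12.4% in either direction. At 48 in old livers 0 of 7 were called, against 12% of all genes lower and 24.1% in either direction. There 5 of the 7 had an unadjusted p under 0.05, against 4978 of the 13436 genes tested. The median log2 change of the 7 genes was -0.86 and -0.92 at 48 and 72 in young livers and -0.77 and -0.60 in old livers. Over all genes tested the corresponding medians lay between -0.01 and 0.01.

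Separation of the individual libraries was more common among the 7 genes than a call. In young livers 7 of 7 genes lay below all 3 libraries before at 48, against 20.8% of all genes, and 7 of 7 at 72, against 17.9%. In old livers 2 of 7 did so at 48 (Hmgcs1 and Idi1), against 16.6% of all genes, and 3 of 7 at 72 (Fdps, Fdft1 and Idi1), against 15.8%.

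**Figure D2:**
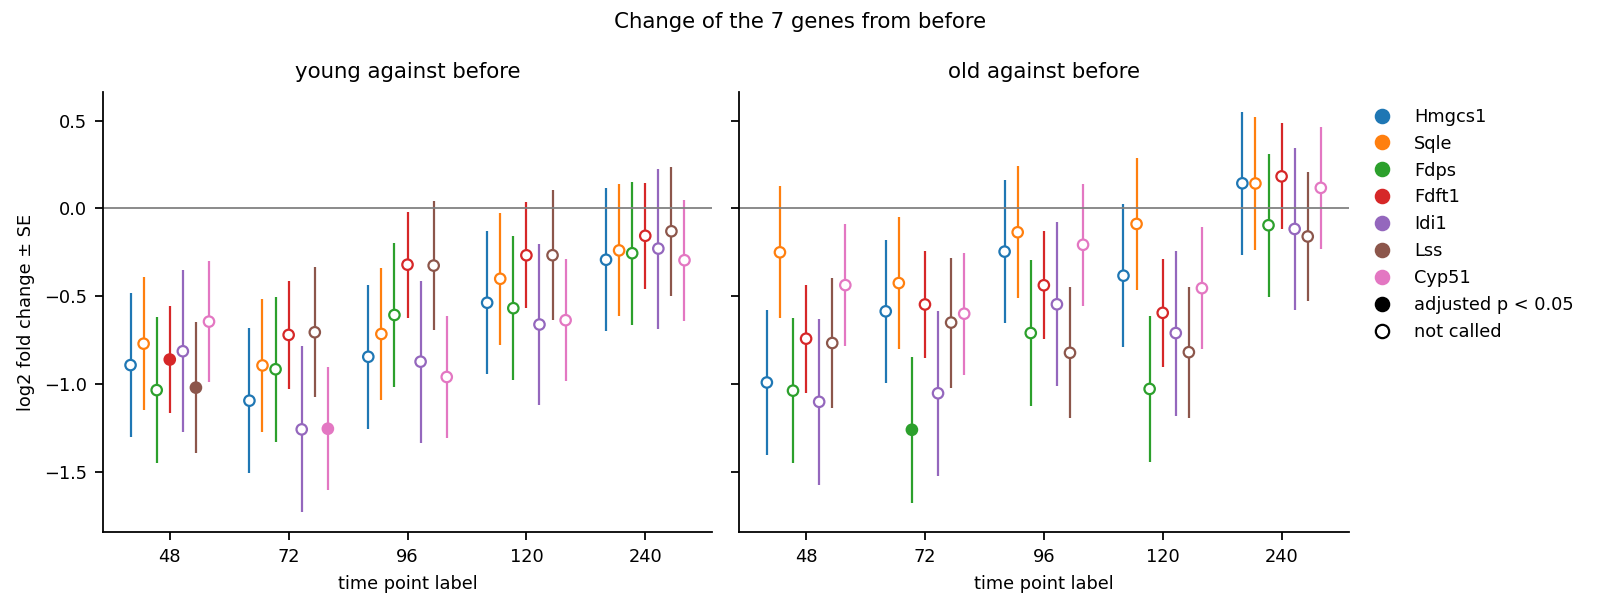
Log2 fold change against before (points, bars are standard errors) for the 7 genes at 5 time point labels in young (left) and old (right) livers, with called changes filled. The 35 young values were all below 0, and of the 35 old values the 7 at 240 were between -0.16 and 0.18.

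From 96 on, no change of the 7 genes was called in either age. At 96 the share of all genes called was 1.4% in young livers (0.737% lower) and 6.82% in old livers (3.07% lower), and the members ranged from -0.96 (Cyp51) to -0.32 (Fdft1) in young livers. Old livers at 96 ranged from -0.82 (Lss) to -0.14 (Sqle), and 3 of 7 (Fdps, Idi1 and Lss) lay below all libraries before, against 13.8% of all genes. In young livers 6 of 7 were still below them, all but Fdft1, against 12.3% of all genes. At an unadjusted p under 0.05 there were 2 of 7 in young and 1 of 7 in old livers at 96, against 2054 and 2970 of the 13436 genes tested.

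At 120 the log2 changes were -0.66 (Idi1) to -0.27 (Lss) in young livers and -1.03 (Fdps) to -0.09 (Sqle) in old livers. Of all genes, 0.581% were called in young livers there (0.365% lower) and 3.87% in old livers (2.02% lower). Fdft1 and Cyp51 were still below all young libraries before, and Fdps, Fdft1 and Lss below all old ones, against 10.9% of all genes in each age. Fdps in old livers at 120 held 34.5, 39.2 and 46.9 CPM, all under its lowest level before of 70.0 CPM (log2 -1.03 ± 0.42, adjusted p 0.167). At 240 the young changes were -0.30 to -0.13 and the old changes -0.16 to 0.18, 0 of 7 had all 3 libraries below those before (against 6.56% and 7.1% of all genes), and 0.246% and 0.156% of all genes were called (0.194% and 0.141% lower).

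The later levels are given by library for 4 genes. Young livers held Hmgcs1 at 1036, 915 and 1179.8 CPM at 96, 1245, 1091 and 1538 CPM at 120 and 1409, 1468 and 1712 CPM at 240. Old livers held it at 1359.6, 1311 and 939 CPM at 96, 778, 1362 and 1142 CPM at 120 and 912, 1999.8 and 1814 CPM at 240. At 240 young levels of Hmgcs1 overlapped with those before, and old levels lay on both sides of them. Fdps in young livers was at 48.9, 59.5 and 45.9 CPM at 96, 62.7, 40.4 and 55.7 CPM at 120 and 68.4, 67.3 and 61.3 CPM at 240. Fdps in old livers was at 53.2, 60.8 and 36.6 CPM at 96, 34.5, 39.2 and 46.9 CPM at 120 and 71.0, 95.7 and 64.6 CPM at 240. Old libraries of Fdps at 96 and 120 were all under the lowest level before, and those at 240 lay around it. Young levels of Lss were 108, 101 and 121 CPM at 96, 93.7, 106 and 145 CPM at 120 and 98.9, 148 and 131 CPM at 240. Old levels of Lss were 85.9, 87.7 and 79.9 CPM at 96, 62.0, 123 and 69.6 CPM at 120 and 102, 163 and 136 CPM at 240. The old Lss libraries at 96 lay close together, and at 120 replicate 2 was well above the others. For Cyp51 the young livers had 429.6, 404 and 485 CPM at 96, 435, 559.7 and 656 CPM at 120 and 698, 654 and 739 CPM at 240. The old livers had 499, 504 and 452 CPM at 96, 282, 532 and 413 CPM at 120 and 432, 765 and 625 CPM at 240. Cyp51 stayed below its young range before at 96 and 120, while in old livers the ranges overlapped.

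The order of the group means was alike among the 7 genes in young livers. The lowest mean was at 48 or 72 for each of them, and 120, 240 and before followed in that order at the top. In old livers the lowest mean was at 48 or 72 for 6 genes and at 96 for Lss. Most neighbours in these orders could not be separated. Of the 5 neighbouring pairs of each gene, none was without overlap except 72 and 96 for Lss in young livers and 96 and 240 for Fdps in old livers.

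The second feature of the data was that the 7 genes moved together from library to library. At 72 replicate 1 had the lowest level of all 7 genes in both ages. Old replicate 1 at 120 was also lowest for 7 of 7, and old replicate 2 at 48 was highest for 7 of 7. Over the 36 libraries the 21 pairs of genes had Pearson correlations of 0.73 (Sqle with Fdps) to 0.91 (Hmgcs1 with Cyp51) on the log2(CPM + 1) scale. With group means removed the range was 0.62 (Fdps with Idi1) to 0.94 (Hmgcs1 with Cyp51). These correlations are descriptions over libraries that share depth scaling and group membership. Hmgcs1 followed the mean of the other 6 genes most closely, at 0.96, and Lss least closely, at 0.86.

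**Figure D3:**
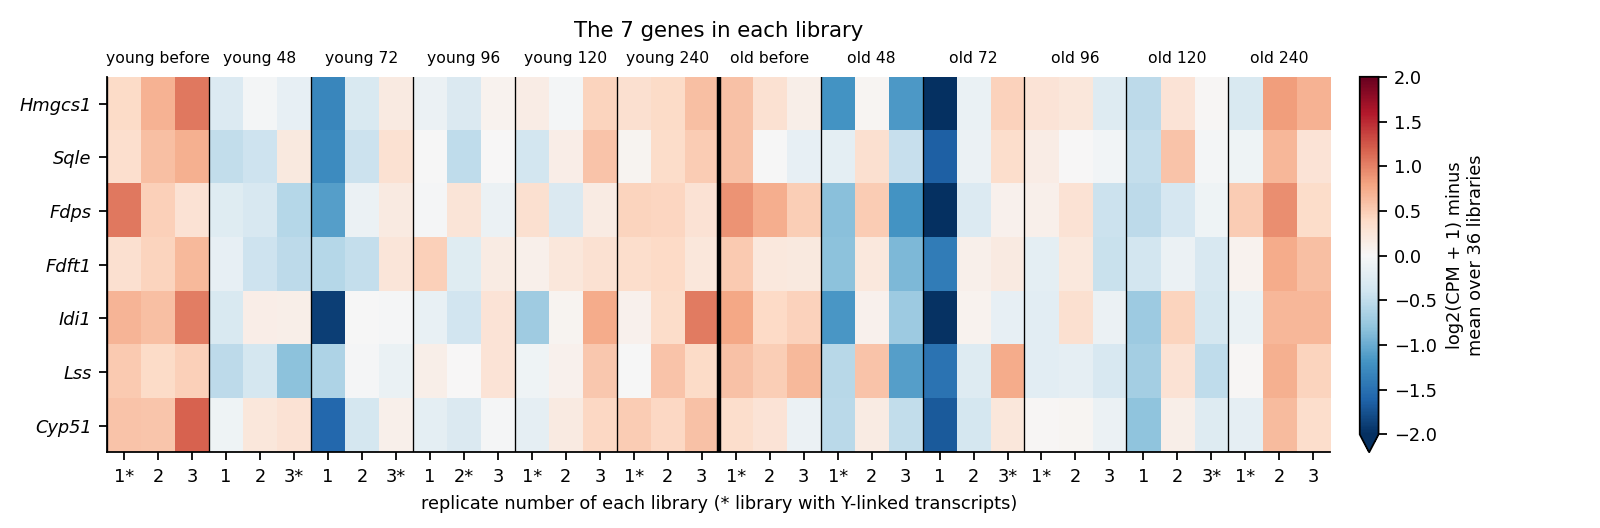
Level of each gene (rows) in each of the 36 libraries (columns), as log2(CPM + 1) minus the mean of that gene over all libraries. Blue is low, red is high, the scale ends at -2 and 2, and asterisks mark libraries with Y-linked transcripts. Replicate 1 at 72 is low for all 7 genes in both ages, and old replicate 2 at 48 is above its group mates for all 7.

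Results at 48 and 72 depended on these libraries. Without young replicate 1 at 72, the changes in young livers at 72 were -0.91 to -0.54 and 0 of 7 were called. In the old livers, leaving out replicate 1 at 72 gave -0.79 to -0.02 and 0 calls at 72. Leaving out old replicate 2 at 48 gave -1.72 to -0.47 at 48, with 4 genes called lower (Hmgcs1, Fdps, Fdft1 and Lss, adjusted p 0.00768 to 0.0236). In that fit 7.57% of all genes were called lower and 16.8% in either direction. That library, highest for all 7 genes, had the lowest summed cell cycle level of its group, 33.4 CPM against 303 and 744 CPM. The libraries lowest for all 7 genes did not share a rank in that sum. Old replicate 1 at 72 was lowest (824 against 1764 and 1444 CPM) and young replicate 1 at 72 was between its mates (1504 against 2134 and 548 CPM). Old replicate 1 at 120 was highest (801 against 672 and 479 CPM). A link between the 2 was not tested. Without old replicate 1 at 120 the changes at 120 were -0.93 to 0.13.

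The split by Y-linked transcripts bore on the same comparisons. The mean log2 change of the 7 genes at 72 in young livers was -1.06 over all libraries, -0.43 between the libraries with Y-linked transcripts and -1.37 between those without. In old livers it was -0.95, -0.35 and -1.25 at 72, and -0.84, -1.37 and -0.58 at 48. At 48 in young livers the values were close, at -0.85, -0.76 and -0.89. This mean was downward in both kinds of library at 48 and 72, with 1 library of a kind or 2 per group behind each value and no test. Single genes that went up in a kind were Lss in old livers at 72 (0.15 with, -1.44 without) and Sqle in old livers at 48 (-0.78 with, 0.02 without). In young livers at 72 Cyp51 changed by -0.48 with and -1.82 without, and Hmgcs1 by -0.21 and -1.68. At 240 in old livers the mean went opposite ways in the 2 kinds, with -0.63 and 0.32.

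Calls themselves stood close to the threshold. Among 46 other ways of processing the counts, Lss at 48 in young livers was not called in 36 and Fdps at 72 in old livers was not called in 32. Fdft1 at 48 was not called in 10 and Cyp51 at 72 in 3. Each of these 4 changes stayed below 0 in all 46. The call of Cyp51 ended in a fit of the groups compared (-1.23, adjusted p 0.0757), without young replicate 1 at 72 (-0.91, adjusted p 0.101) and without young replicate 3 before (-1.01, adjusted p 0.0802). That of Fdft1 ended without any 1 of the 6 libraries compared (adjusted p 0.0596 to 0.152), and also without old replicate 1 before (adjusted p 0.0532). A fit of the young groups at 48 and before alone called all 7 genes lower, where 12.6% of 12045 genes were called lower and 27% in either direction.

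The next question was whether age changed the level of these enzymes. No difference between old and young was called for any of the 7 genes at any of the 6 time points, and none had an unadjusted p under 0.05. The background was uneven over time, since 11.2% of all genes were called at 48 and 0.171% at 96. Of all genes, 0.0595% were called in the livers taken before and 0.0149% in those of the 240 groups, while 72 and 120 gave 0 calls. The smallest adjusted p among these 42 comparisons was 0.494. Averaged over the 6 time points, the 7 differences of old minus young were -0.24 (Cyp51) to -0.01 (Sqle) on the log2 scale, with 0 of 7 called against 5.98% of all genes. The intervals of those averages bound what could have been missed in the average, and not at a single time point. They reached from -0.57 to 0.21 for Idi1, from -0.53 to 0.05 for Cyp51, from -0.47 to 0.21 for Hmgcs1 and from -0.33 to 0.30 for Sqle (95%, n = 18 libraries per age).

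At single time points 3 genes had groups without overlap, all lower in old livers. Cyp51 before was at 455 to 631 CPM in old livers and 722 to 1110.2 CPM in young livers, a log2 difference of -0.61 ± 0.35 (adjusted p 0.785). Old livers at 96 had 79.9 to 87.7 CPM of Lss against 101 to 121 CPM in young livers, a difference of -0.38 ± 0.37 (adjusted p 0.732). Fdft1 at 120 was at 30.2 to 36.1 CPM against 42.3 to 48.8 CPM, a difference of -0.49 ± 0.31 (adjusted p 0.635). The shares of all genes that were lower without overlap at these time points were 6.32%, 10.7% and 8.63% (12.8% at 48, 4.51% at 72 and 5.07% at 240, where none of the 7 was), and 1 of 7 genes at each is no more than a description.

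The change from before did not differ between the ages by the age by time interaction, with adjusted p of 0.891 (Lss) to 0.996 (Idi1) and 0 of 7 called against 2.76% of all genes. At 48 the old change minus the young change ranged from -0.29 ± 0.66 (Idi1) to 0.52 ± 0.53 (Sqle). At 72 it ranged from -0.34 ± 0.58 (Fdps) to 0.65 ± 0.49 (Cyp51). Their standard errors, 0.43 to 0.66, are close to the size of many of the changes from before. The later differences ran from -0.50 (Lss) to 0.75 (Cyp51) at 96, from -0.55 (Lss) to 0.31 (Sqle) at 120 and from -0.03 (Lss) to 0.44 (Hmgcs1) at 240. None of the 7 was called at any of the 5 time points, where 1.38% of all genes were called at 48, 0.0149% at 96, 0.00744% at 120 and 0% at 72 and 240.

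**Figure D4:**
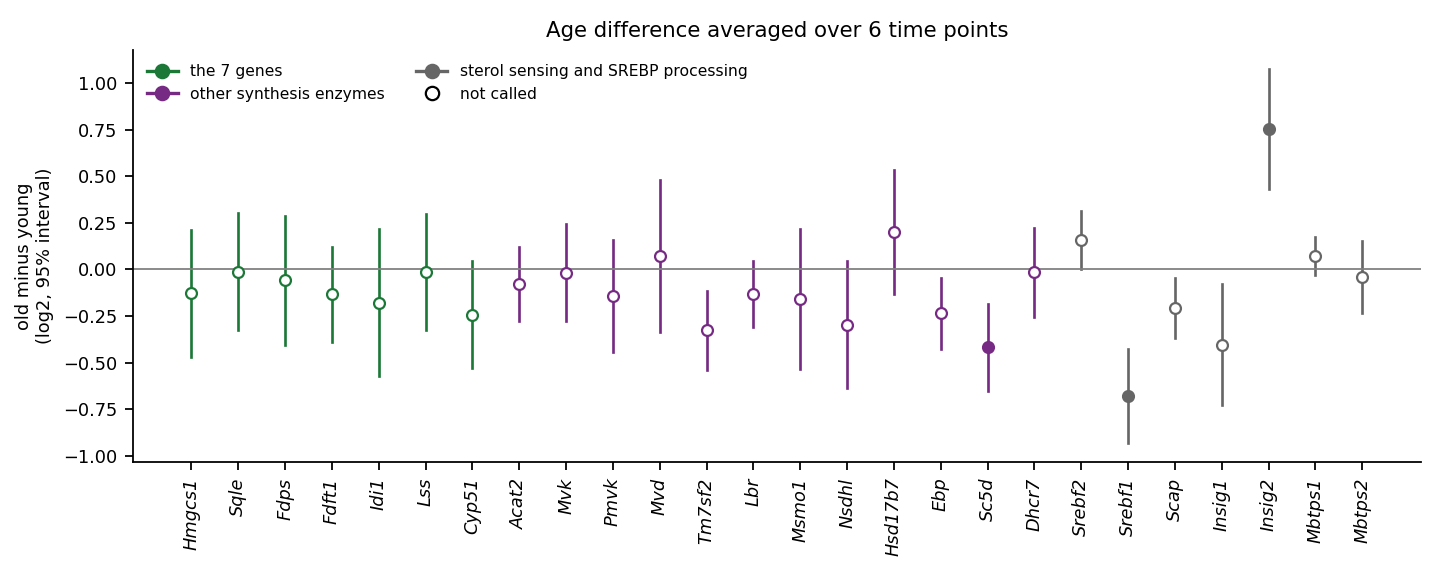
Old minus young averaged over 6 time points (points, log2; lines are 95% intervals) for the 7 genes, 12 other synthesis enzymes and 7 genes of sterol sensing. Filled points were called. The 7 intervals of the first group all include 0, and Sc5d, Srebf1 and Insig2 are the called genes.

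A list of 12 other enzymes of the pathway did not all go the way of the 7 genes. At 48 in young livers 2 fell, 1 rose and 9 were not called, with a median of -0.62. Those that fell were Pmvk, a mevalonate pathway kinase (-1.10 ± 0.36, adjusted p 0.0270), and Tm7sf2, a sterol C14 reductase (-1.41 ± 0.26, adjusted p 0.000166). The call of Pmvk ended without any 1 of young replicates 1, 2 and 3 before or 1 and 3 at 48 (adjusted p 0.0511 to 0.125) and without the libraries with Y-linked transcripts (0.157). The gene that rose was Lbr (1.08 ± 0.21, adjusted p 0.000298), which encodes a nuclear membrane protein with the same C14 reductase activity as the product of Tm7sf2. Tm7sf2 went from 119 to 138 CPM before to 41.4 to 58.2 CPM at 48 in young livers, and Lbr from 16.9 to 18.4 CPM to 31.3 to 48.2 CPM.

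At 72 in young livers 6 of the 12 fell and none rose (median -0.83), and in old livers 6 fell at 48 (median -0.90) and 4 fell at 72 (median -0.83). In old livers at 72 the smallest adjusted p values were those of Tm7sf2 (-1.33 ± 0.26, adjusted p 0.00112), Sc5d (-1.33 ± 0.28, adjusted p 0.00261) and Acat2 (-1.08 ± 0.24, adjusted p 0.00337). The call of Acat2 ended in a fit of the groups compared (adjusted p 0.118). Sc5d, the sterol C5 desaturase gene, was also lower in old livers averaged over the time points, by -0.42 ± 0.11 (adjusted p 0.0264). That call ended without the libraries with Y-linked transcripts (-0.36, adjusted p 0.245), a fit that leaves 24 libraries.

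**Figure D5:**
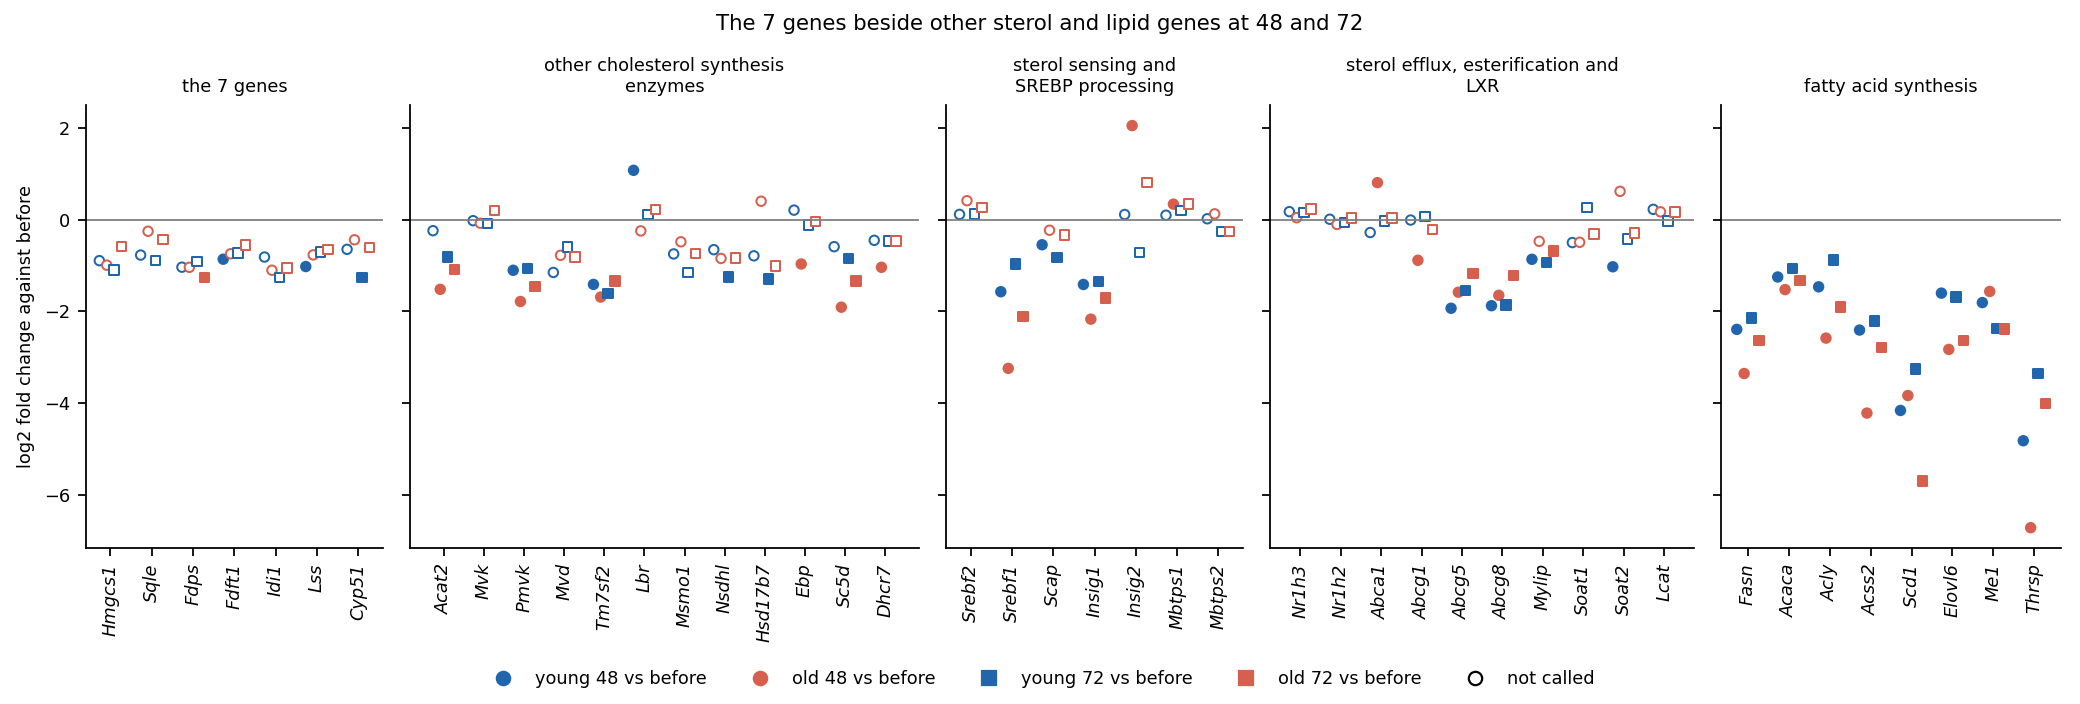
Log2 fold change against before at 48 (circles) and 72 (squares) in young (blue) and old (red) livers for 5 groups of genes, with called changes filled. The 7 genes lie between -1.26 and -0.25, and the 8 fatty acid synthesis genes lie between -6.72 and -0.88, all of them called at both time points in both ages.

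Genes that control the pathway behaved unlike one another. Srebf2, which encodes SREBP-2 itself, was not called at 48 or 72 in either age, with log2 changes of 0.12 ± 0.19 and 0.13 ± 0.19 in young livers and 0.42 ± 0.19 and 0.26 ± 0.19 in old livers (adjusted p 0.105 to 0.706). Its young libraries held 46.6 to 64.7 CPM before and 53.0 to 60.3 CPM at 48. Without the libraries with Y-linked transcripts its young change at 72 was -0.10. Insig1, a sterol-responsive retention factor for SCAP and itself an SREBP target, fell in all 4 comparisons. Its changes were -1.41 ± 0.39 and -1.34 ± 0.39 in young livers and -2.17 ± 0.40 and -1.70 ± 0.40 in old livers (adjusted p 0.00986, 0.0181, 0.000404 and 0.00547). Neither young call of Insig1 held without the libraries with Y-linked transcripts (-1.34 at 48 and -1.59 at 72, adjusted p 0.121 and 0.0581). The old call at 72 ended in a fit of the groups compared (-1.68, adjusted p 0.0802). The young call at 48 also ended without young replicate 1 or 3 at 48 (adjusted p 0.0510 and 0.0666). At 72 it ended without young replicate 3 before, 1 at 72 or 2 at 72 (adjusted p 0.0651, 0.0865 and 0.0692).

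Srebf1, which encodes the related factor SREBP-1 that drives fatty acid synthesis, fell at 48 and 72 in young livers, with changes of -1.57 ± 0.31 and -0.97 ± 0.30 (adjusted p 0.000372 and 0.0266). In old livers the changes of Srebf1 were -3.24 ± 0.33 and -2.11 ± 0.31 (adjusted p 5.2e-07 and 0.000101). Averaged over time points Srebf1 was lower in old livers, at -0.68 ± 0.12 (adjusted p 0.00087). Its young call at 72 ended without young replicate 2 before (-0.76, adjusted p 0.124), 2 at 72 (-0.86, adjusted p 0.114) or 3 at 72 (-0.91, adjusted p 0.0696). Insig2, the other INSIG gene, rose in old livers at 48 by 2.06 ± 0.40 (adjusted p 0.000599), from 134 to 254 CPM before to 328 to 1329 CPM. That call ended in a fit of the 2 groups alone (adjusted p 0.0871). In young livers at 48 the value of Insig2 was 0.12 ± 0.38 (adjusted p 0.865), and its average over time points was higher in old livers by 0.75 ± 0.16 (adjusted p 0.0041). This average of Insig2 was 0.70 (adjusted p 0.0579) without the libraries with Y-linked transcripts.

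Scap fell in young livers, with changes of -0.54 ± 0.19 at 48 and -0.83 ± 0.19 at 72 (adjusted p 0.0402 and 0.00393) and was not called in old livers (-0.23 ± 0.19 and -0.33 ± 0.19). The call of Scap at 48 was lost in 9 of 46 other ways of processing, 6 of which left out 1 library (adjusted p 0.0504 to 0.156). These were young replicates 1 and 2 before, 1 and 3 at 48, 1 at 96 and old replicate 2 at 96. Of the protease genes, Mbtps2 was not called in any of the 4 comparisons. Mbtps1 rose in old livers at 48 by 0.34 ± 0.12 (adjusted p 0.0380), and this call ended without old replicate 1 or 2 before or 2 or 3 at 48 (adjusted p 0.0617 to 0.116), without the libraries with Y-linked transcripts (0.165) and in a fit of the 2 groups alone (0.237). For this list as a whole, 3 of 7 fell at 48 and 3 at 72 in young livers, while in old livers 2 fell and 2 rose at 48 and 2 fell at 72.

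The last 3 lists give the surroundings of the pathway. All 8 fatty acid synthesis genes fell at 48 and 72 in both ages, with medians of -2.10 and -2.18 in young livers and -3.09 and -2.63 in old livers. Among them Fasn, the fatty acid synthase, changed by -2.39 ± 0.32 at 48 in young livers (adjusted p 5.47e-06) and by -2.63 ± 0.33 at 72 in old livers (adjusted p 2.84e-05). Acaca, which makes malonyl-CoA, changed by -1.25 and -1.33 in the same comparisons. Thrsp, a lipogenic regulator, was lower in old livers averaged over the time points, at -0.91 ± 0.26 (adjusted p 0.0344), a call lost in 15 of 45 other ways of processing (14 of them with 1 library left out, adjusted p 0.0509 to 0.0615). Of 10 genes of sterol efflux, esterification and the LXR receptors, 4 fell at 48 and 3 at 72 in young livers, and in old livers 3 fell and 1 rose at 48 (the sterol exporter Abca1, 0.81 ± 0.25, adjusted p 0.0206) and 3 fell at 72. Abcg5 and Abcg8 encode the subunits of the transporter that exports sterols into bile. Both fell at 48 in young livers, with changes of -1.93 ± 0.40 and -1.88 ± 0.35 (adjusted p 0.000765 and 0.000248), as did Mylip at -0.86 (adjusted p 0.000780). In old livers at 72 the same 3 genes were those called, at -1.17, -1.21 and -0.68 (adjusted p 0.0476, 0.0205 and 0.0135). The old calls ended in a fit of the groups compared (adjusted p 0.129, 0.133 and 0.0777). Leaving out old replicate 3 before or 2 at 72 also ended each of them (adjusted p 0.0907 to 0.254), and that of Abcg5 was lost in 31 of 46 other ways of processing. Of 5 genes of the branches that lead from isoprenoid units to dolichol, ubiquinone and geranylgeranyl groups, Dhdds rose at 48 in young livers (0.49 ± 0.13, adjusted p 0.00828) and in old livers (0.41 ± 0.13, adjusted p 0.0243), and no other call was made at 48 or 72. The young call of Dhdds ended without young replicate 3 at 48 (0.41, adjusted p 0.0623) and without the libraries with Y-linked transcripts (0.38, adjusted p 0.168).

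Among the genes whose levels over the 36 libraries were most like the mean of the 7 were 5 other enzymes of the pathway, and 7 of the 10 highest are given here. Likeness was the Pearson correlation on the log2(CPM + 1) scale, among 10273 other genes with a mean of at least 5 CPM. Nsdhl ranked first at 0.93 and Msmo1 next at 0.92, and both act after Cyp51 in removing methyl groups from the sterol ring. Rdh11, a retinol dehydrogenase gene that is on none of the lists, was 3 in the ranking at 0.85 and Insig1 was 4 at 0.85. Mvd ranked 6 at 0.82, Pmvk 7 at 0.82 and Dhcr7 10 at 0.79. With group means removed the correlations of these 7 genes were 0.69 (Dhcr7) to 0.93 (Nsdhl), so the likeness was also present among libraries of the same age and time point.

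Msmo1 shows this by library. It was at 48.9, 97.7 and 220.2 CPM in young livers at 72 and 39.4, 136 and 189.7 CPM in old livers at 72, with replicate 1 lowest in both, as for the 7 genes. In old livers at 48 Msmo1 was at 116, 209 and 111 CPM, with replicate 2 highest.

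The positions of the 7 genes on GRCm38 (GENCODE M21) may bear on how exact their counts are. Hmgcs1 lies at chr13:119690379-119708260, Idi1 at chr13:8885501-8892451, Lss at chr10:76531588-76557138 and Sqle at chr15:59315077-59331192, all on the plus strand. Fdps lies at chr3:89093588-89101959, Fdft1 at chr14:63145150-63179578 and Cyp51 at chr5:4081145-4104746, on the minus strand. Each of them is annotated as protein coding. Sqle overlaps no other annotated gene. Fdft1 overlaps Ctsb and Cyp51 overlaps Akap9, both protein coding genes on the opposite strand. Hmgcs1, Idi1 and Lss overlap noncoding or unclassified genes on the opposite strand, and Fdps overlaps 2 genes on its own strand. These overlaps are between whole gene spans, and overlap of exons was not measured. The strand setting of the counting was not given in the sources used here. The counts of the 5 genes with an overlap on the opposite strand may be uncertain to that extent. The overlaps of Fdps are on its own strand, so its counts may be uncertain under either setting.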

How the data were processed

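Liver total RNA from 36 libraries (2 ages, 6 time points, n = 3) was depleted of ribosomal RNA, per the labels' protocols. The authors deposited raw counts, 1 whole number for each gene symbol in each library. The submitters' processing notes name STAR 2.7.5b, featureCounts, Trimmomatic 0.39 and the builds GRCm38 and mm10, without roles. The labels describe ERCC spike-ins, and 0 ERCC rows were in the tables used here. Spread between replicates therefore sets the precision, together with totals of 2328233 to 6034446 counts.

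Counts were fitted with edgeR 4.0.16 (R 4.3.3; TMM scaling, filterByExpr, robust quasi-likelihood fit with 1 mean for each of the 12 groups, 13436 genes), checked on simulated counts. Each comparison had its own Benjamini-Hochberg adjustment over all genes, with calls at an adjusted p under 0.05. The standard error is the fold change divided by the square root of F. Y-linked transcripts were called above 10 CPM in the sum of Ddx3y, Eif2s3y, Kdm5d and Uty. Sequences came from RefSeq (GRCm38.p6).

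The 7 genes, the lists and the tests were chosen with earlier results of these data known. Named besides the 7 genes were list members called in the age average or the interaction, the 3 with the smallest adjusted p at 48 in young and 72 in old livers, the sterol sensing genes, and the 10 genes most alike, of which 3 are not reported here. A few further genes and libraries were named after their values were seen. Deviations from group means were correlated between libraries of equal replicate number, without a comparison at unequal numbers, and the design has no block. Alternatives were other scalings, filters, fits and DESeq2 1.42.0, leaving out each library, and, added after seeing the data, a fit without the robust option.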

Additional observations from a re-analysis of the deposited data

Results flagged for a closer look

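None of the 7 synthesis genes was singled out by a difference between the ages. Among the other lists 4 genes had an age by time interaction, that is, a change from before that differed between young and old livers (edgeR's quasi-likelihood test, n = 3 per group). The adjusted p was 0.00857 for Lbr, 0.0308 for Srebf1, 0.0214 for Soat2 and 0.0254 for Scd1.

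For Lbr the ages differed at 48, where young livers held 31.3 to 48.2 CPM and old livers 10.4 to 18.6 CPM (old minus young -1.30 ± 0.21, adjusted p 0.000294). At the other 5 time points the difference was -0.14 to 0.42 and was not called. Soat2, which encodes an enzyme that esterifies cholesterol, was higher in old livers at 48 by 1.57 ± 0.28 (adjusted p 0.000635), with 39.9 to 87.1 CPM against 15.0 to 23.5 CPM. Srebf1 was lower in old livers at 48, at -1.48 ± 0.31 on the log2 scale (adjusted p 0.00209), with 43.8 to 93.0 CPM against 119 to 264 CPM. Its differences at 72, 96 and 120 were -0.95, -1.28 and -0.85, none of them called. Scd1, a fatty acid desaturase, was lower in old livers at 96, at -4.89 ± 1.04 on the log2 scale (adjusted p 0.0482), with 112 to 308 CPM against 3983 to 7423 CPM.

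Without the libraries with Y-linked transcripts the interaction had an adjusted p of 0.0768 for Lbr, 0.159 for Srebf1, 0.324 for Soat2 and 0.123 for Scd1. Leaving out young replicate 1 at 48 ended all 4 calls (0.0569, 0.0740, 0.0957 and 0.0619). Soat2 and Scd1 were also not called without young replicate 3 at 48 (0.104 and 0.0505) or old replicate 2 at 48 (0.103 and 0.0557), and Scd1 not without old replicates 1 or 3 at 96 (0.0731 and 0.0600). For Srebf1, 8 further single libraries ended the call (adjusted p 0.0501 to 0.0676): young replicates 1 and 3 before, 2 at 48, and 1 and 3 at 240, and old replicates 2 before, 1 at 48 and 1 at 240.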

How the results depend on the processing

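Directions at 48 and 72 held more widely than calls. Total-count scaling moved the median change of all genes by 0.11 at 48, 0.20 at 72 and 0.11 at 96 in young livers and by 0.12 at 72 in old livers, and all 7 genes stayed below 0 there. Standard errors of these changes were 0.30 to 0.47 with 3 libraries per group.

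At 48 in young livers the count of the 7 genes called was 2, and it was 1 with median-of-ratios scaling, 0 with total-count scaling, 0 with no filter on low counts, 1 with a filter at a mean CPM of 1, 0 without the libraries with Y-linked transcripts and 7 in a fit of the groups compared. At 72 in young livers it was 1, against 3 without the libraries with Y-linked transcripts and 3 by DESeq2. At 96 in young livers it was 0, against 4 in a fit of the groups compared. In old livers it was 0 at 48, against 1 by DESeq2, and 1 at 72, against 0 with total-count scaling, with no filter, without the libraries with Y-linked transcripts and in a fit of the groups compared. That fit gave 1 rather than 0 at 96 and at 120 in old livers. The cause was not tested. With 1 of the 36 libraries left out at a time, the counts ranged from 0 to 3 at 48 and 0 to 4 at 72 in young livers, and from 0 to 4 at 48 and 0 to 2 at 72 in old livers. The first of these moved in 31 of 36 cases and the last in 29. In the age comparisons, the interaction and the other comparisons with before the count stayed at 0 in each of these. Shares of all genes called are given above for the fit of the young groups at 48 and before. They are also given for old livers at 48 without old replicate 2. For the other fits named here the share was not computed, so those counts cannot be set against all genes.

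Whether equal replicate numbers mark a shared batch was left undecided, since libraries of unequal number were not compared. The mean correlation of deviations at equal numbers was 0.062 between ages, 0.058 over time in young and 0.147 in old livers. Of the time pairs 8 of 15 were over 0.1 in each age, and the highest were 0.57 and 0.58. The young library with Y-linked transcripts was replicate 1 before, 3 at 48 and 72, 2 at 96 and 1 at 120 and 240. Among old livers it was replicate 1 before and at 48, 96 and 240, and 3 at 72 and 120. A replicate number therefore did not mark 1 animal through all time points in either age. A replicate block within each age gave 4 genes called at 72 in young livers, 4 at 48 in old livers and 2 at 72 in old livers. The share of all genes called with that block was not computed, so these counts cannot be set against it. With the block shared by the ages, Sqle averaged 0.0025 and Insig1 was called.

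Among the values checked, those that changed sign lay between -0.28 (Fdps, age difference at 72) and 0.37 (Lss, age difference at 48). None of them was called. For the synthesis genes, age differences at single time points were checked only for the lowest and the highest value of each time point. The changes from before at 240 were checked in the same way. Whether the other genes kept their sign there was not tested. Without the libraries with Y-linked transcripts Sqle in old livers was 0.077 at 48, 0.081 at 96 and 0.24 at 120. Lss was 0.048 at 240 in young and 0.012 at 240 in old livers, and its age difference at 72 was -0.47. In the same fit Insig2 and Mbtps2 at 48 in young livers were -0.0525 and -0.18, and Srebf2 at 72 was -0.10. Total-count scaling gave age averages of 0.013 for Sqle and 0.0048 for Lss. With 1 library left out at a time, some values crossed 0. Averaged age differences ran from -0.085 to 0.072 for Sqle, from -0.13 to 0.050 for Lss and from -0.17 to 0.016 for Fdps. Age differences ran from -0.73 to 0.18 for Fdps at 72, from -0.52 to 0.56 for Lss at 72, from -0.27 to 0.67 for Lss at 48 and from -0.38 to 0.18 for Sqle at 120. For Sqle in old livers the changes from before ran from -0.47 to 0.037 at 48, from -0.26 to 0.15 at 96 and from -0.39 to 0.19 at 120. Lss at 240 ran from -0.26 to 0.018 in young and from -0.32 to 0.0036 in old livers. In young livers Insig2 at 48 ran from -0.095 to 0.33, Mbtps2 at 48 from -0.13 to 0.13 and Srebf2 at 72 from -0.0070 to 0.29. Mbtps2 in old livers at 48 ran from -0.12 to 0.31.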
